A study of Homo sapiens with 6 samples.

Results

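IL13RA2, 2 receptor chains that share its ligand, the chitinase-like proteins CHI3L1 and CHI3L2 and the membrane protein TMEM219 were followed in U251 glioma cells with and without a PARK2 transgene. The set was chosen by the intensity of IL13RA2, which was higher in the PARK2 arrays, and the other 5 genes were added as its relatives, so the difference of IL13RA2 is given as a description with no test. The 6 genes were read by 12 of the 41091 probe sets that carry 1 gene symbol, and 8 of the 12, from 4 of the 6 genes, were bright enough to be tested among 26603 probe sets and 13720 genes.

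U251 is a human glioma line. The control group was U251 with GFP overexpression (3 arrays) and the other group was U251 with PARK2 overexpression (3 arrays). Both are stable lines made by viral infection and puromycin selection, so the selection is shared by all 6 arrays. The promoter of the transgene, and whether a line is 1 clone or a pool, are not given in the sources used here. Replicates are labelled as biological, but separate cultures or infections are not named. A p-value here weighs the difference between groups against a spread of samples within a group, and that spread may be technical only. For each gene, limma drew this spread mostly from a trend over genes of similar intensity (60.8 prior against 4 residual degrees of freedom). Small p-values therefore do not rest on the 3 arrays of a gene alone. Without the trend 3267 of 13720 genes were called, against 3957 with it. The adjusted p of the AP-1 gene FOSL2 was then 7.1e-05, against 4.3e-10.

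IL-13 and IL-4 signal through a receptor made of IL13RA1 and IL4R, which activates JAK kinases and the transcription factor STAT6. IL13RA2 binds IL-13 with high affinity but has a short cytoplasmic tail and does not drive the JAK-STAT6 route, and it is often called a decoy receptor. It is abundant on many gliomas and sparse in normal brain, which has made it a target of engineered T cells and of toxin fusions. CHI3L1 is a secreted protein of the chitinase family without enzyme activity, known in glioma as a marker of the mesenchymal state, and it has been described as a further ligand of IL13RA2, with TMEM219 as a co-receptor.

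Array intensities were of similar overall size. The 2% trimmed mean over all probe sets was 168, 149 and 137 for the control arrays, in the order of their replicate numbers, and 141, 149 and 155 for the PARK2 arrays, so control replicate 1 was the brightest. Of 10 glial and glioma markers, 8 were past the brightness filter. The intermediate filament vimentin (VIM) was at 8898 ± 444 (SD, n = 3) in control and 8921 ± 523 in PARK2 cells. The stem cell factor SOX2 was at 5151 ± 555 and 6322 ± 287, while CHL1 (means 5.32 and 4.28) and AQP4 (4.96 and 4.25) were under the filter. The summed intensity of 8 myeloid and lymphoid markers ran from 45.7 to 81.2 in control and from 57.5 to 89.3 in PARK2 arrays, with 2 of the 8 past the brightness filter. The filter's lowest mean intensity was 9.87, and the pan-leukocyte gene PTPRC, at 4.78 ± 3.38 and 9.05 ± 2.36, was under it. So was the monocyte gene CD14, which read 0.603, 1.31 and 1.75 in control and 6.98, 9.90 and 10.995 in PARK2 replicates, without overlap. Fitted with no filter, where limma called 15.2% of 19775 genes, CD14 was the 1 of these 8 markers called (0.55, adjusted p 0.0184), and its part in other results was not tested. For 8 endothelial and fibroblast markers the sum ran from 225 to 272 and from 210 to 285. By limma, 0 of the 7 tested genes of these 2 lists were past the threshold, with 0 at an unadjusted p below 0.05, and the nearest were COL1A1 (-0.32, adjusted p 0.208), PDGFRB (0.29, 0.367), CD3E (0.27, 0.478) and ITGAM (-0.23, 0.514). Of 8 tested glial and glioma markers 2 rose and 1 fell, 37.5% against 28.8% of all genes, with a median log2 difference of -0.06. The calcium-binding protein gene S100B fell by 1.39 (adjusted p 9.3e-10). SOX2 rose by 0.30 (adjusted p 0.0378) on its brightest probe set. But 0 of its 4 probe sets past the filter were called higher in the probe set fit, and their average was at 0.27 (adjusted p 0.228). GFAP rose by 0.53 (adjusted p 0.0107) on its brightest probe set, but was at -0.03 as the average over its probe sets.

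IL13RA2 was higher in PARK2 cells in all 3 arrays. Its single probe set, 206172_at, read 2051, 1647 and 1406 units of intensity in the control arrays, given here and elsewhere in the order of replicates 1, 2 and 3, and 4176, 4025 and 4144 in the PARK2 arrays. The lowest PARK2 array lay above the brightest control array, so the groups did not overlap. The 3 control values had the order of the trimmed means of their arrays, and the PARK2 values lay closer together than the control values did. The group means were 1701 ± 326 (SD, n = 3) and 4115 ± 79.3, a ratio of 2.42. On the log2(intensity + 16) scale, where 16 is a pseudocount that damps the noise of dim values, the difference was 1.28 (SE 0.13, n = 3 per group). By this difference IL13RA2 stood at place 284 of 13720 genes, counted from the highest. Leaving out each array in turn gave differences from 1.16 to 1.43, and the other 11 ways of processing gave 1.26 to 1.33. In bulk RNA, more cells with a transcript and more of it per cell cannot be told apart.

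**Figure D1:**
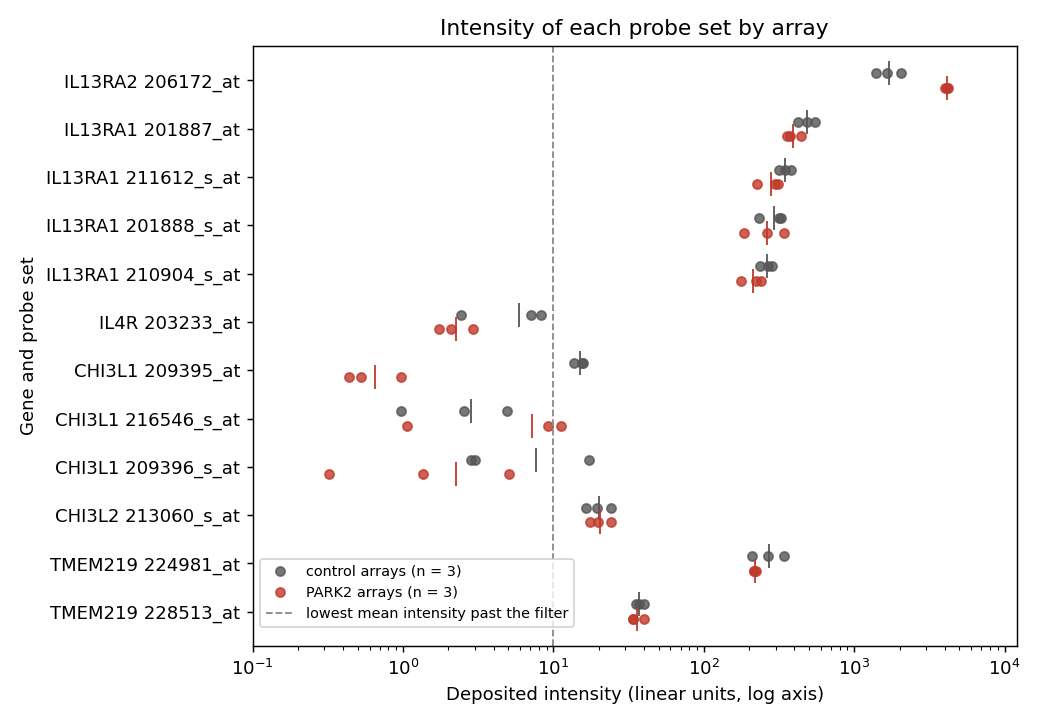
Deposited intensity (log axis) of each of the 12 probe sets in the 3 control and 3 PARK2 arrays, with a tick at each group mean and a dashed line at the lowest mean intensity past the filter, 9.87. The PARK2 points of IL13RA2 lie at 4025 to 4176, right of its control points at 1406 to 2051. The points of the groups overlap for 9 of the other 11 probe sets. Over the series, groups did not overlap for 35.1% of probe sets past the filter and 11.2% of those under it.

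Neither receptor chain that carries the IL-13 signal was called. IL13RA1, the signalling chain, had 4 probe sets, all past the filter and all with a lower mean in PARK2 cells, with log2 differences from -0.32 to -0.16. Without PARK2 replicate 1, the probe set 201888_s_at was at 0.05 and the others were between -0.27 and -0.17. The brightest of the 4 probe sets read 547, 483 and 421 in control arrays and 371, 443 and 355 in PARK2 arrays. PARK2 replicate 2 lay above control replicate 3 there, so the groups overlapped by 1 array on each side. The means were 484 ± 62.8 and 390 ± 46.6 (SD, n = 3), a log2 difference of -0.30 (SE 0.15, 95% interval -0.61 to 0.01), with limma's adjusted p at 0.149 over 13720 genes. The probe set marked 211612_s_at read 348, 379 and 314 in control and 224, 298 and 312 in PARK2 replicates, without overlap between the groups, and its adjusted p over 26603 probe sets was 0.201. Groups that do not overlap were found for 35.1% of all probe sets past the filter. IL13RA1 did not pass the threshold, but the interval reaches to a fall of 0.61, so a moderate fall is within what 3 arrays a group leave possible.

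IL4R, the chain shared by the IL-4 and IL-13 receptors, was dim in all 6 arrays. Its single probe set read 7.05, 2.43 and 8.31 in control and 2.94, 2.09 and 1.73 in PARK2 replicates, all under the lowest mean intensity past the filter. The 2 groups overlapped, and IL4R was not among the tested genes. Fitted without a filter, its log2 difference was -0.26 (SE 0.13) with limma's adjusted p at 0.316 over 41091 probe sets. With no detection calls in use, these values do not tell a low level of IL4R from background.

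CHI3L1 was dim as well, and its 3 probe sets differed. The probe set 209395_at read 15.4, 13.6 and 15.7 in control arrays and 0.441, 0.529 and 0.976 in PARK2 arrays. All 3 control arrays lay above all 3 PARK2 arrays, and the control values had an SD of 1.11. Its mean log2 value was under the filter, and in a fit without the filter its difference was -0.89 (SE 0.13), with limma's adjusted p at 0.0024, where 9.86% of 41091 probe sets passed. This size depends on the pseudocount, since it was -3.28 with 1 and -0.29 with 64 in place of 16. Among the 14488 probe sets under the filter, 11.2% had groups that did not overlap.

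The other CHI3L1 probe sets did not show that separation. The probe set 209396_s_at read 17.2, 3.03 and 2.82 in control and 5.08, 0.323 and 1.36 in PARK2 replicates. Control replicate 1 stood apart there, and the other values of the groups were mixed. The probe set 216546_s_at read 4.92, 2.55 and 0.972 in control and 9.22, 1.06 and 11.2 in PARK2 replicates, with the higher mean in PARK2 cells. Without the filter their adjusted p-values were 0.458 and 0.460. CHI3L1 thus had 1 of 3 probe sets with a lower value in every PARK2 array, on a scale where most values were under the brightness filter.

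CHI3L2, a further chitinase-like protein, differed between the groups by less than its spread. It read 24.3, 16.6 and 19.5 in control and 19.9, 24.1 and 17.6 in PARK2 replicates, with means of 20.1 ± 3.89 and 20.5 ± 3.30 (SD, n = 3). The ranges of the groups lay over each other. The log2 difference was 0.02 (SE 0.23, 95% interval -0.43 to 0.47, limma's adjusted p 0.967), and it was below 0 without control replicate 2 (-0.05) or PARK2 replicate 2 (-0.05). The interval leaves room for a rise of up to 0.47 or a fall of up to 0.43 on the log2 scale.

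TMEM219, the co-receptor described for CHI3L1 and also a receptor for IGFBP3, had 2 probe sets. The brighter read 339, 266 and 210 in control and 215, 215 and 222 in PARK2 replicates. The 3 PARK2 arrays fell inside the control range, which control replicate 1 widened. Its means were 272 ± 64.6 and 217 ± 4.24 (SD, n = 3), a log2 difference of -0.28 (SE 0.17, 95% interval -0.61 to 0.05, limma's adjusted p 0.220). The dimmer probe set read 39.7, 37.1 and 35.2 in control and 40.2, 34.0 and 33.9 in PARK2 replicates, a log2 difference of -0.04 (SE 0.18, adjusted p 0.924 over all probe sets).

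Of the 3 tested genes other than IL13RA2, limma called 0, with 0 at an unadjusted p below 0.05 and the lowest at 0.0569, where 28.8% of all 13720 genes passed, 13.3% with a rise and 15.6% with a fall in PARK2 cells. Of their 7 probe sets past the filter, 0 passed against 20.4% of all probe sets, and 0 were at an unadjusted p below 0.05. These 3 genes and 7 probe sets are too few to compare with those shares. A negative difference was found for 6 of the 7 probe sets, but these come from 2 genes, 4 from IL13RA1 and 2 from TMEM219. The median over all genes tested was -0.003, so a negative sign alone is common. Of the 7, 1 had groups that did not overlap, against 35.1% of all probe sets past the filter. The gene count of 0 rested on control replicate 3. Without it, 2 of the 3 genes were past the threshold, IL13RA1 at -0.39 (adjusted p 0.0435) and TMEM219 at -0.44 (adjusted p 0.0285). In the probe set fit their brightest probe sets did not pass there (0.101 and 0.0765). Without that array 36.1% of all calls were rises, against 45.9% in the main setting. In the gene fit IL13RA1 also passed when the arrays were scaled to 1 trimmed mean (-0.27, adjusted p 0.0491) and with array weights (-0.27, adjusted p 0.0364). Its brightest probe set did not pass in the probe set fit of these settings (0.0838 and 0.127).

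**Figure D2:**
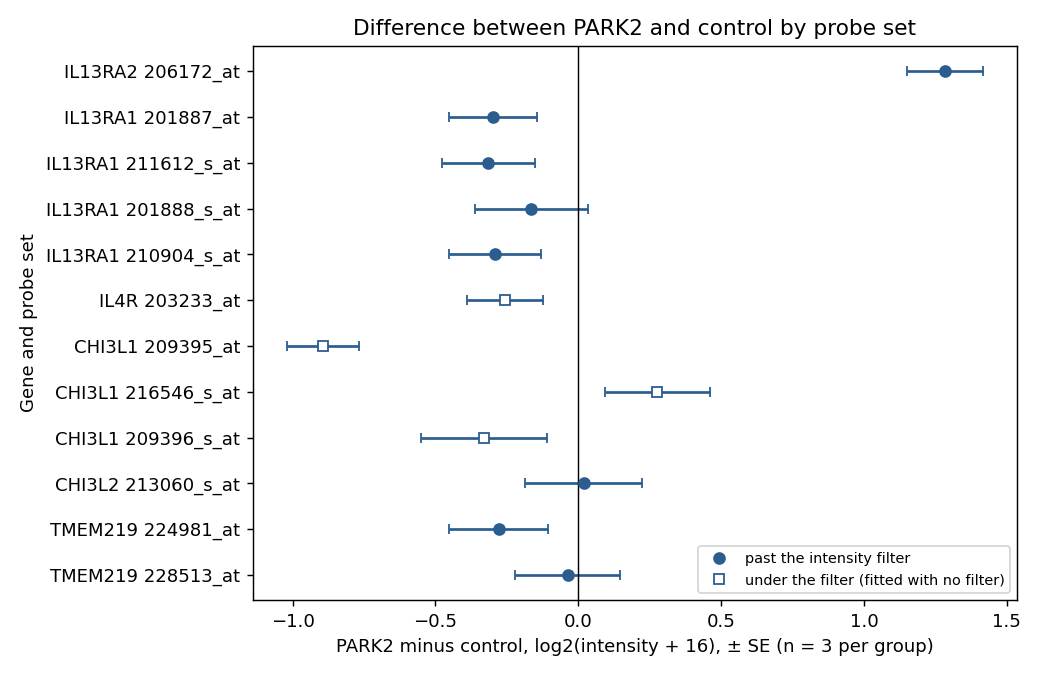
PARK2 minus control difference of each probe set on the log2(intensity + 16) scale, with its SE (3 arrays per group). Filled circles are probe sets past the filter and open squares are those under it, fitted with no filter. IL13RA2 stands at 1.28, the 4 IL13RA1 probe sets lie between -0.32 and -0.16, and the 3 CHI3L1 probe sets spread from -0.89 to 0.28.

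The promoters of the chitinase-like genes held fewer CpG dinucleotides than those of the receptors. RefSeq promoter windows (GRCh38.p14) were at hand for 5 of the 6 genes, IL13RA2 being the one without an entry, and the 250 bases before the transcription start were searched on both strands. The window of CHI3L1 held 6 CpG dinucleotides and that of CHI3L2 held 3, against 27 in TMEM219, 28 in IL13RA1 and 35 in IL4R, with a median of 11 over 35116 windows of that length. The 2 chitinase-like promoters are printed because each held a match to a motif searched, and the matches differ. The CHI3L1 window is chr1:203186705-203186954 on the minus strand and the CHI3L2 window chr1:111227409-111227658 on the plus strand, each 5′ to 3′. Capitals mark TATAAA, the TATA box core, in CHI3L1, and TTCNNNGAA, the spacing shared by several STAT sites, in CHI3L2.
CHI3L1: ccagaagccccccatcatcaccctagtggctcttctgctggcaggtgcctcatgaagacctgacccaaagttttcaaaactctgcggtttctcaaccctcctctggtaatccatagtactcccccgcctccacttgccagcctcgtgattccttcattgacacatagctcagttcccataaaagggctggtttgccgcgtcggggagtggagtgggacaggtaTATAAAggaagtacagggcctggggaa
CHI3L2: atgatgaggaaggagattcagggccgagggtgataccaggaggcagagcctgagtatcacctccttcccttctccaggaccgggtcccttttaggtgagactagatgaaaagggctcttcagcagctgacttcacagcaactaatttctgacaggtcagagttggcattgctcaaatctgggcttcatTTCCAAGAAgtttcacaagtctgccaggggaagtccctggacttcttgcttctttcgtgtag
TATAAA was in 10.7% of all windows and TTCNNNGAA in 6.57%. The spacing preferred by STAT6, TTC and GAA with 4 bases between them, was in 0 of the windows of these 5 genes and in 5.38% of all windows, and the AP-1 site TGACTCA was in 0 of these and in 4.20% of all. A match is a description of the letters and not a site of binding, and the absence of a match holds for these 250 bases alone.

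Of the 10 tested genes nearest to IL13RA2 on the X chromosome 1 rose and 1 fell. Over all genes 28.8% were called, and 10 genes are too few to compare with that share. The 5 tested genes on each side were taken in the order of the RefSeq gene table. The closest on one side, LRCH2, a leucine-rich repeat protein gene, read 64.5, 75.2 and 67.6 in control and 110, 170 and 154 in PARK2 replicates, and it rose by 0.90 on the log2 scale (SE 0.18, limma's adjusted p 4.8e-05). AMOT, the closest on the other side, codes for angiomotin and was at 0.22 (SE 0.24, adjusted p 0.562). CHRDL1, an inhibitor of bone morphogenetic proteins, fell by 0.80 (SE 0.18, adjusted p 0.00042). The other 7 genes did not pass, with differences from -0.54 (RTL9, adjusted p 0.0531) to 0.32 (DOCK11, adjusted p 0.167), and the actin-bundling gene PLS3 was at -0.14.

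**Figure D3:**
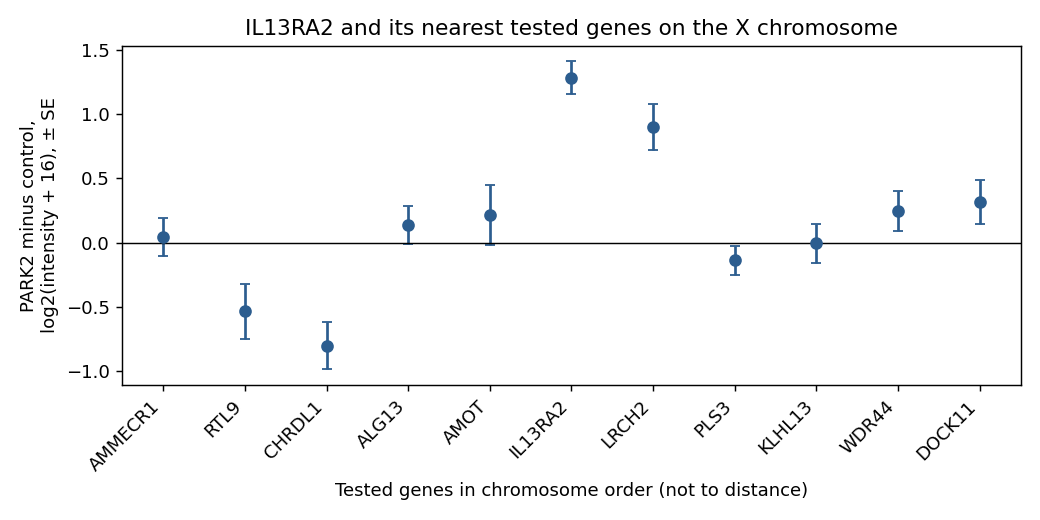
PARK2 minus control difference with its SE (log2(intensity + 16), 3 arrays per group) of IL13RA2 and the 5 nearest tested genes on each side, drawn in chromosome order without distances. LRCH2 at 0.90 lies beside IL13RA2 at 1.28, and CHRDL1 at -0.80 is the lowest of the 11.

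The genes whose 6 log2 values, centred on their mean, lay closest to those of IL13RA2 were UPP1, SCD5, S1PR3, HS6ST1 and LNX1. The measure was the root mean square difference over the 6 arrays, which was 0.05 for the uridine phosphorylase gene UPP1, 0.06 for the desaturase gene SCD5, 0.06 for the sphingosine-1-phosphate receptor gene S1PR3, 0.06 for the heparan sulfate sulfotransferase gene HS6ST1 and 0.07 for the ubiquitin ligase gene LNX1. UPP1 read 759, 605 and 492 in control and 1605, 1407 and 1562 in PARK2 replicates. Its control arrays had the same order as those of IL13RA2, with replicate 1 the highest, and in both genes PARK2 replicate 2 was the lowest of its group. Since these genes were chosen for this likeness, their differences of 1.28 to 1.42 are a description.

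In the main setting, genes of IL-4 and IL-13 signalling passed the test about as often as all genes did. Of 13 tested genes of this list 3 rose and 1 fell, or 30.8% against 28.8%, with a median log2 difference of 0.05 against 0.00 over all genes tested. Quantile normalization, among others, kept these counts. But 1 rose and 0 fell of 13 without control replicate 2, where 2911 of 13718 genes were called. The same held without PARK2 replicate 1 or 3 and with the mean of probe sets. SOCS3, a feedback inhibitor of cytokine receptors, rose from 299.95 ± 49.9 to 486 ± 37.7 (SD, n = 3), a log2 difference of 0.68 (SE 0.16, limma's adjusted p 4.7e-04), and all 3 PARK2 arrays lay above all 3 control arrays. The adaptor IRS2 rose by 0.41 (adjusted p 0.0163, but 0.108 without control replicate 2 and 0.0622, 0.110 and 0.0568 without PARK2 replicate 1, 2 or 3) and JAK2 by 0.48 (adjusted p 0.0461), while STAT3 fell by 0.37 (adjusted p 0.0307). Averaged over its probe sets SOCS3 was at 0.33 (adjusted p 0.111), and JAK2 and STAT3 were near the threshold and lost it in 8 and 7 of 17 other settings. Among these were the replicate number as a block (adjusted p 0.0702 and 0.0608) and the fits without control replicate 2 (0.131 and 0.136) or PARK2 replicate 1 (0.0549 and 0.0879), 2 (0.142 and 0.129) or 3 (0.211 and 0.124), and for JAK2 also without control replicate 3 (0.0612). JAK1, the kinase bound by IL4R, was at 1328 ± 200.3 and 1144 ± 75.4, a log2 difference of -0.20 (SE 0.14, adjusted p 0.299).

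STAT6, the transcription factor of the route, was dim, at 8.45, 3.50 and 20.95 in control and 7.28, 1.71 and 13.5 in PARK2 replicates on its brightest probe set, and it did not pass the filter. The common gamma chain gene IL2RG was dim too, at 4.75 ± 5.73 and 8.71 ± 5.04. The ligand gene IL13 was tested, at means of 27.7 and 24.4, and did not pass (-0.18, SE 0.24, adjusted p 0.652), and IL4 was under the filter.

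Among genes that IL-4 or IL-13 can induce in other cells, 0 rose and 3 fell of 5 tested (60% called, against 28.8% of all genes), while 11 of the 16 with a probe set were under the filter. TGM2, transglutaminase 2, read 321, 302 and 245 in control and 77.5, 59.8 and 57.2 in PARK2 replicates. The groups lay far apart, and TGM2 fell by 1.92 on the log2 scale (SE 0.17, limma's adjusted p 8.0e-15), with all 3 of its probe sets past the filter lower. The adhesion molecule VCAM1 fell by 1.39 (SE 0.18, adjusted p 5.1e-09). CCL26, the chemokine eotaxin-3, read 452, 335 and 263 in control and 152, 165 and 191 in PARK2 replicates, without overlap, and fell by 0.96 (SE 0.17, adjusted p 5.8e-06). The median of the 5 was -0.96, but it was 0.03 over all 16 without the filter, and POSTN (0.21, adjusted p 0.467) and SERPINB3 (0.34, adjusted p 0.346) did not pass.

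Partners of CHI3L1 and TMEM219 changed singly. Of 10 tested, 1 rose and 3 fell, 40% against 28.8% of all genes, with a median of -0.22. IGFBP3, a secreted ligand of TMEM219, read 846, 652 and 634 in control and 1497, 1453 and 1389.5 in PARK2 replicates. Each PARK2 array lay above each control array, and IGFBP3 rose by 1.02 (SE 0.14, limma's adjusted p 2.3e-08), with both of its probe sets past the filter higher. The integrin subunit ITGB3 fell by 0.97 (adjusted p 2.2e-04), a size that was -1.80 without PARK2 replicate 3, -0.65 without control replicate 2 and -0.57 with a pseudocount of 64. Smaller falls were those of the heparan sulfate proteoglycan SDC1, by 0.50 (adjusted p 0.0082), and the galectin-3 binding protein gene LGALS3BP, by 0.39 (adjusted p 0.0346). The calls of SDC1 and LGALS3BP were lost when control replicate 1 (adjusted p 0.0751 and 0.143), control replicate 2 (0.117 and 0.107) or PARK2 replicate 2 (0.106 and 0.155) was left out, and that of LGALS3BP also without PARK2 replicate 1 (0.0783) or 3 (0.0892). CD44, the hyaluronan receptor, was at 7150 ± 755 and 7453 ± 198 (0.06, adjusted p 0.730), and galectin-3, LGALS3, was at 0.29 (adjusted p 0.0675).

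IL13RA2 has been linked to AP-1 and TGF-beta1, and of 9 tested genes of that route 1 rose and 3 fell, 44.4% against 28.8% of all genes, with a median of -0.23. FOSL2, an AP-1 subunit, read 1870, 1629 and 1769 in control and 721, 843 and 818 in PARK2 replicates, and it fell by 1.13 (SE 0.14, limma's adjusted p 4.3e-10) with all 5 of its probe sets past the filter lower. FOSL1 fell by 0.70 (adjusted p 3.2e-04) and the receptor TGFBR1 by 0.53 (adjusted p 0.0021), the latter on 1 of its 3 probe sets. FOS rose by 0.84 (adjusted p 0.0027) at a low intensity, 20.5 ± 12.7 and 47.3 ± 12.4, and its adjusted p was 0.0701 without the filter. Its size was 1.35 with a pseudocount of 1, 0.40 with 64 and 0.56 without control replicate 3. TGFB1 itself was at -0.23 (adjusted p 0.377).

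Of the other genes of glycoside hydrolase family 18, to which CHI3L1 and CHI3L2 belong, limma called 0 of 3 tested, against 28.8% of all genes. At an unadjusted p below 0.05 there were 0, and 3 genes are too few to compare with that share. OVGP1, oviductal glycoprotein, was at 0.46 (adjusted p 0.153), and passed without control replicate 2 (0.74, adjusted p 0.0231). CHID1 was at -0.31 (adjusted p 0.178), and passed without control replicate 3 (-0.45, adjusted p 0.0286). The active chitinases CHIA and CHIT1 were under the filter.

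Class I cytokine receptors, the family of IL13RA2, moved both ways. Of 18 tested, 4 rose and 3 fell, 38.9% against 28.8% of all genes, with a median of -0.01. The prolactin receptor PRLR read 20.1, 15.6 and 11.6 in control and 84.2, 86.7 and 96.1 in PARK2 replicates and rose by 1.73 (SE 0.20, limma's adjusted p 9.9e-11). Its size depends on the pseudocount, being 2.45 with 1 and 0.94 with 64. The leukemia inhibitory factor receptor LIFR rose by 1.68 (adjusted p 2.9e-13) and the IL-7 receptor IL7R by 1.41 (adjusted p 2.4e-12), both without overlap between the groups. CSF2RA, a chain of the GM-CSF receptor, read 53.7, 28.8 and 33.9 in control and 2.80, 1.62 and 1.89 in PARK2 replicates. Its PARK2 values lay under the lowest mean intensity past the filter, so it was tested through its control values. Its log2 difference of -1.57 (adjusted p 1.9e-07, and 4.2e-04 without the filter) was -0.63 with a pseudocount of 64. The 3 falls counted in this list, and the 17 over the related lists, include CSF2RA. Averaged over probe sets LIFR was at 0.74 and PRLR at 0.98.

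Other surface antigens studied as glioma targets also split. Of 13 tested, 3 rose and 4 fell, 53.8% against 28.8% of all genes, with a median of -0.06. L1CAM, a neural adhesion molecule, read 139.9, 86.2 and 112 in control and 574, 637 and 681 in PARK2 replicates, and it rose by 2.35 (SE 0.16, limma's adjusted p 1.9e-19). GPNMB rose by 1.41 (adjusted p 3.7e-10). The checkpoint molecule CD276 fell by 1.17 (adjusted p 3.6e-08) on its brightest probe set, 1 of 2 past the filter, and by 0.67 as their mean, and ERBB2 fell by 1.22 (adjusted p 7.2e-08). EGFR was at -0.06 (adjusted p 0.825), though 3 of its 7 probe sets past the filter were lower.

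Over the 7 related lists together 12 of 71 tested genes rose and 17 fell, so 40.8% passed against 28.8% of all genes, and the lists were not drawn at random from them.

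**Figure D4:**
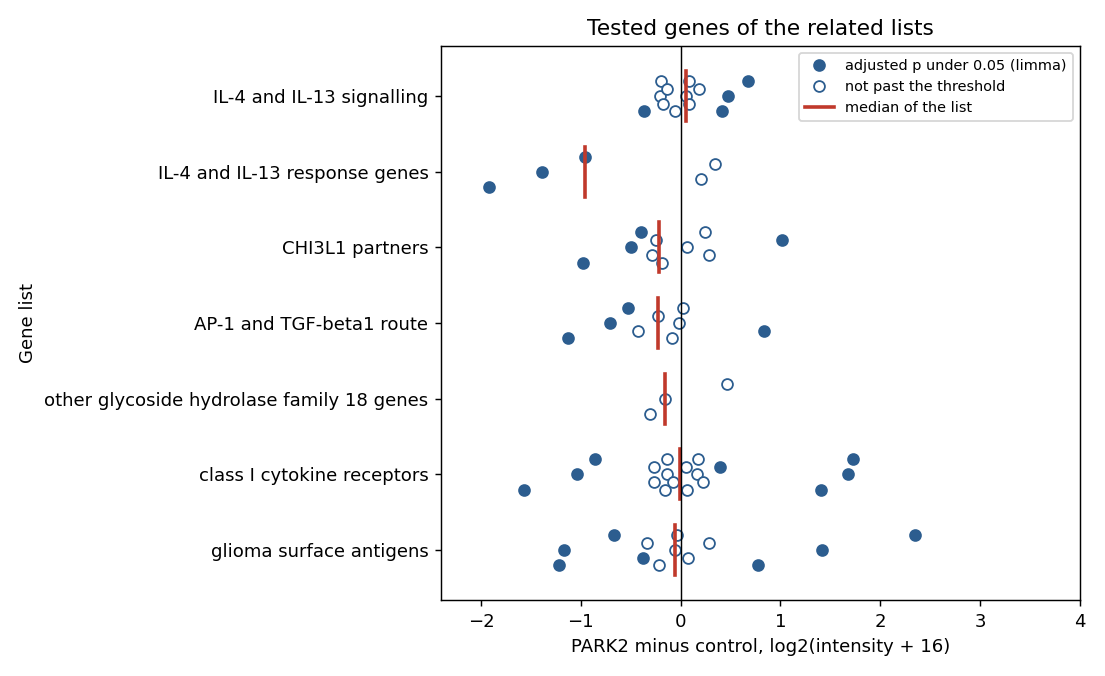
PARK2 minus control difference (log2(intensity + 16), 3 arrays per group) of each tested gene in the 7 related lists, filled where limma's adjusted p was under 0.05, with a bar at each list's median. The response genes of IL-4 and IL-13 have their median at -0.96 over 5 genes, and the other lists have medians between -0.23 and 0.05.

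**Figure D5:**
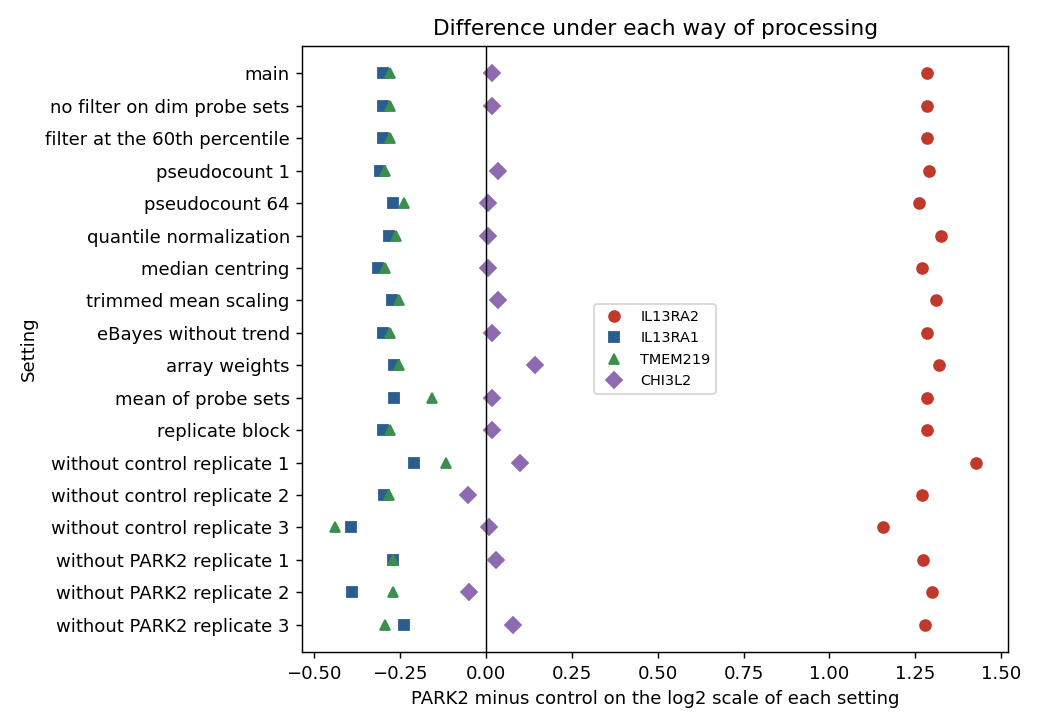
Difference of the 4 tested genes of the set on the log2 scale under the main setting and 17 others, of which 6 leave out 1 array each. IL13RA2 stays between 1.16 and 1.43, IL13RA1 between -0.39 and -0.21 and TMEM219 between -0.44 and -0.12, and CHI3L2 lies on both sides of 0.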

How the data were processed

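Total RNA of 6 samples was hybridized on Affymetrix arrays. The authors deposited a linear intensity for each of 54675 probe sets (62 of them controls) on each array. GCOS and MAS5 appear, without version or role, among the tools of the submitters' processing notes. The scaling between arrays is therefore unknown, and no detection calls entered. Symbols came from the platform annotation of GEO, which gives 1 symbol to 41091 probe sets, several to 1801 and none to 11721.

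The deposited intensities were turned into log2(value + 16) without further normalization, and probe sets with a mean under the 40th percentile were left out. Each gene was represented by its brightest probe set, and every probe set was also fitted. Groups were compared with limma 3.58.1 (R 4.3.3), its variance prior following the mean (60.8 prior and 4 residual degrees of freedom) and Benjamini-Hochberg adjustment at 0.05 over all features. On simulated arrays of 13720 genes with 200 changed, the fit of PARK2 against control recovered 33.3% of changes of 1.5-fold, 80.0% of 2-fold and 100% of 4-fold. In the data 28.8% of genes were called. The adjusted threshold depends on the share of changed genes, so these rates do not carry over to the data. The number of arrays limits the precision.

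The members and gene lists were chosen with earlier results of these data known. Named were all members, up to 4 called genes per list by size (where none passed, the 2 with the smallest p), JAK1, STAT6 and IL2RG, the 5 genes nearest in pattern and the 5 neighbours on each side, and other genes were named after their values were seen. Alternatives covered filter, pseudocount, normalization, variance model, weights, probe set choice, replicate block and left-out arrays. Transgene expression is not part of the account, and labels were taken as given.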

Additional observations from a re-analysis of the deposited data

How the results depend on the processing

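Array weights raised the genes past the threshold from 3957 to 6294 and the probe sets from 5416 to 8229, where the cause was not tested. The members past it besides IL13RA2, 0 in the main setting, were 1 without a filter (CHI3L1), 1 after trimmed mean scaling, 1 with array weights and 0 to 2 when single arrays were left out. Related genes past it ran from 22 to 36 over all 17 alternatives, 29 in the main setting. In the gene fit, CHI3L2 turned sign without control replicate 2 (-0.053) or PARK2 replicate 2 (-0.050). Its range over left-out arrays was -0.053 to 0.10. Sign also turned for COL1A1 (0.061) and GFAP (-0.027) averaged over their probe sets, and for CD3E with array weights (-0.0097). A filter at the 60th percentile leaves out dim genes such as CHI3L2 and OVGP1, which then have no value. Of the genes that turned sign, GFAP alone was past the threshold in the main setting. The probe set 209395_at of CHI3L1 kept its call in the 11 alternatives that were run without a filter, chosen after seeing the data, with adjusted p from 0.0013 to 0.0186. SOX2 and IRS2 lost theirs in 8 and 5 of 17. Over all genes, 45.9% of calls were rises, but 60.7% without control replicate 1 and 36.1% without control replicate 3.

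Same-numbered arrays deviated from their group means with r across genes of 0.168, 0.045 and 0.065, other pairs with -0.122 to 0.069, and not every array went best with its own number. Under 8 other scalings, filters and pseudocounts, added after seeing the data, at least 1 same-number r was also 0.1 or lower. They were largest with the filter at the 60th percentile (0.337, 0.072 and 0.137, other pairs up to 0.160), so they depend on that choice, and the numbers were not taken to pair samples. With the replicate block 26 related genes passed, and of 26 named genes called, 3 were lost (JAK2, STAT3 and LGALS3BP, the last at an adjusted p of 0.0585).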
